A study of Mus with 2 samples.

Results

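Small pre-B cells that transcribe the recombinase genes were described in bone marrow of mice from a running group and a ground group. Hindlimb marrow of each group was profiled as 1 single-cell RNA sequencing library with a droplet-based 3′ kit, which counts each captured transcript once by its unique molecular identifier (UMI). The labels give no strain, age, sex, number of pooled mice or running protocol, and leave the term ground unexplained. Cells were chosen from their own transcripts. They had at least 1 UMI of the B-cell receptor signalling gene Cd79a, at least 1 UMI of Rag1 and Rag2 together, at most 1 UMI of the pro-B genes Dntt, Vpreb1 and Igll1 together, no Ighd UMI and under 5% of UMIs from the neutrophil genes S100a8 and S100a9. This gate held 410 of 18089 barcodes that passed the filters, 195 in running and 215 in ground. The share was 2.12% in running (95% interval 1.84 to 2.44%) and 2.41% in ground (2.10 to 2.75%), a ratio of 0.880 (0.721 to 1.07). After barcodes were thinned to 1000 UMIs before gating, with shallower ones left out (8861 running and 8550 ground barcodes remained), the shares were 1.46% in running and 1.57% in ground. All intervals cover counting error only, and with 1 library per group no difference has a replicate check, a test or a p-value. Handling of the libraries and the effect of group cannot be told apart.

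B-cell precursors first join the heavy-chain gene segments, then display the heavy chain with the surrogate light chain, made from Vpreb1 and Igll1, as the pre-B receptor. That receptor drives a burst of division in large pre-B cells. Cells that leave the cycle become small pre-B cells, switch the recombinase genes Rag1 and Rag2 on again and rearrange the light-chain loci, kappa before lambda in most cells of the mouse. A cell with a working light chain displays surface IgM and becomes an immature B cell. Interleukin 7 sustains the dividing stages, and the chemokine receptor Cxcr4 holds precursors in the marrow niche.

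The gated cells carried the genes that name them, which describes the choice and is no test of it. Rag1 (mm10 chromosome 2, 101638252 to 101649532) stood at 542 CPM, counts scaled to the summed UMIs of the gated cells of a library, in running (494 to 593) and 576 CPM in ground (526 to 630). Rag2, its partner subunit and genomic neighbour (chromosome 2, 101624712 to 101632528), stood at 92.4 and 115 CPM. Rag1 alone gave entry to 127 running and 145 ground cells, Rag2 alone to 18 and 22, and the remaining 50 and 48 held both. Among markers outside the gate, Vpreb3, which assists pre-B receptor and B-cell receptor assembly, was present in 99.5% of cells of each library. Ebf1, a master regulator of B-lineage identity, was present in 98.5% of running and 99.1% of ground cells. Bach2, a repressor that acts at the pre-B receptor checkpoint, was present in 88.2% and 91.6%, and Cecr2, which encodes a bromodomain protein, in 82.6% and 85.6%. None of 283 running and 208 ground T cells, gated on at least 2 UMIs of Cd3 genes and no Cd79a, held a Rag UMI, and with 3 counts taken as the limit of a count of 0 this allows shares of up to 1.06% and 1.44%. In all barcodes without Cd79a, 0.439% of running and 0.523% of ground barcodes held one.

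The cells just inside and just outside the edges of the gate were counted without a test. In running 60 cells had just 1 Rag UMI, 52 had 2 and 83 had 3 or more, and in ground the counts were 70, 51 and 94. Cells with 1 Rag UMI held a median of 9.5 Vpreb3 UMIs in running and 10.5 in ground, and those with 3 or more held 12 and 10. Cells outside with no Rag UMI, the other conditions being met, numbered 411 in running and 392 in ground and held medians of 2 and 1 Vpreb3 UMIs. Single UMIs of Dntt, Vpreb1 or Igll1 were seen in 9 running and 7 ground members, and 3 cells of each library stood just outside with 2. Exactly 1 Ighd UMI kept out 60 running and 45 ground cells, which held medians of 12.5 and 12 Vpreb3 UMIs. Of 23 barcode sequences found in both libraries, 2 belonged to members, and none to members of both.

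Most members were shallow, with a median of 2764 UMIs and 1345 genes in running and 2826 UMIs and 1358 genes in ground. A few were not. Above 10000 UMIs lay 13 running and 5 ground cells, the largest with 105500 and 62482 UMIs, and they held 34.7% of all member UMIs in running and 17.1% in ground. Of these, 8 running and 5 ground cells carried abundant transcripts of another cell type, counted as at least 100 UMIs of the myeloid gene Lyz2, 50 of the progenitor granule gene Elane, or 1000 of haemoglobin or Igha. All cells above 10000 UMIs together held 89.4% of the Lyz2 UMIs in running and 76.9% in ground, and 96.3% of the haemoglobin UMIs in ground. Scrublet, a doublet caller, marked 1 running and 2 ground members. A limit of 10000 UMIs was therefore added after these values had been seen, leaving 182 running and 210 ground cells, and results are given with and without it. Under that limit the shares of barcodes were 2.53% in running and 3.30% in ground, a ratio of 0.766 (0.625 to 0.939), against barcodes under the same limit. The limit left 7203 of 9180 running and 6370 of 8909 ground barcodes, a larger loss in ground, and its part in this ratio was not tested.

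**Figure D1:**
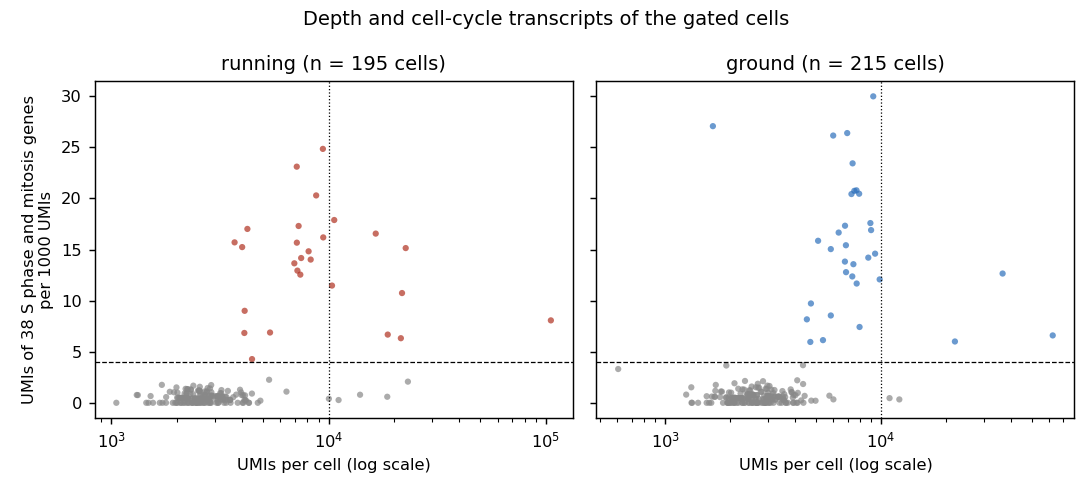
UMIs per gated cell (log scale) against UMIs of 38 S phase and mitosis genes per 1000 UMIs, with 1 point per cell, for running (left, n = 195) and ground (right, n = 215). Coloured points above the dashed line at 4 per 1000 are the 27 running and 33 ground cells called cycling, and the dotted line marks 10000 UMIs.

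Although the gate aims at resting cells, it held a distinct cycling group. Cells with at least 4 UMIs of 38 S phase and mitosis genes per 1000 UMIs numbered 27 of 195 in running (13.8%, 9.33 to 19.5%) and 33 of 215 in ground (15.3%, 10.8 to 20.9%). That line was drawn after the distribution had been seen, and 3 running and 8 ground cells lay near it, between 2 and 6 per 1000. Within the limit of 10000 UMIs there were 19 of 182 (10.4%) and 30 of 210 (14.3%), a ratio of 0.731 (0.389 to 1.34), so a difference was not detectable at this number of cells. The plot of depth against cell-cycle transcripts shows 2 clouds, since cycling cells within the limit had medians of 7146 UMIs in running and 7132 in ground and non-cycling ones 2625 and 2622. By UMI content, the name small therefore fits the non-cycling cells and not the cycling ones. After thinning of each cell to 1000 UMIs, 13.8% of running and 16.4% of ground members were cycling.

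Cycling and non-cycling members also differed in genes outside the cycle list. Of 3963 genes with at least 50 UMIs under the limit, 306 (7.72%) were at least 2-fold higher and 317 (8%) at least 2-fold lower by CPM in cycling than in non-cycling cells in each library. The cycle genes defined the groups and are left aside here. Rag1 stood at 169 CPM in cycling and 985 CPM in non-cycling cells of running, and at 164 and 912 CPM in ground. Rag2 did not share this pattern, at 120 and 118 CPM in running and 192 and 112 CPM in ground. Of the members that entered by Rag2 alone, 55.6% in running and 59.1% in ground were cycling, against 7.87% and 5.52% of those that entered by Rag1 alone. The gate asks for 1 Rag UMI at any depth, so it admits deeper cells at a lower CPM, and its part in these values was not tested.

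Several regulators of the resting pre-B state had lower CPM in the cycling cells of each library. Foxo1, which activates the Rag genes, stood at 48.2 CPM in cycling and 351 CPM in non-cycling cells of running, and at 106 and 350 CPM in ground. Ikzf3, which encodes Aiolos and restrains pre-B proliferation, stood at 40.1 and 315 CPM in running and 77.0 and 344 CPM in ground. Of 30 lineage transcription factors with at least 50 UMIs, 6 were at least 2-fold lower in each library (Foxo1, Ikzf3, Spib, Pou2f2, Klf2 and Bcl11a) and none higher. Of 18 surface genes of B-cell maturation, 10 were lower and 1 higher. Among the lower ones were the invariant chain gene Cd74, with log2 ratios of −1.25 in running and −1.92 in ground, and Ighm, with −1.32 and −1.13. These ratios are of CPM, and cycling cells held more UMIs in total. Counted per cell, Ighm was not lower. Its median was 22 UMIs in cycling and 22 in non-cycling cells of running, and 25.5 and 22 in ground. Counts per cell of the other genes, Btg1 and Il2ra below among them, were not compared. A lower CPM there need not mean fewer UMIs per cell, and the part of the larger UMI totals was not tested. The antiproliferative gene Btg1 had log2 ratios of −1.67 and −2.13. Il2ra, whose product CD25 marks small pre-B cells in mouse marrow, stood at 40.1 and 259 CPM in running and 86.6 and 218 CPM in ground. The histone methyltransferase gene Ezh2 went the other way, with log2 ratios of 1.92 and 2.04.

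The gated cells were set beside 3 other B-lineage gates. Stages were gated on the same barcodes, so these are descriptions. With all cells, 419 of 5811 genes (7.21%) were at least 2-fold higher and 231 (3.98%) lower in each library against the pro-B and large pre-B gate, 422 of 7656 (5.51%) higher and 449 (5.86%) lower against the immature gate, and 187 of 7647 (2.45%) higher and 242 (3.16%) lower against the mature gate. Barcodes above 10000 UMIs made up 73 of 146 running and 28 of 69 ground cells of the pro-B gate. All gates were therefore read again without such barcodes, and the values that follow are from that set. Against 73 running and 41 ground cells with at least 2 UMIs of Dntt, Vpreb1 and Igll1 (pro-B and large pre-B), 126 of 3052 genes (4.13%) were at least 2-fold higher in the small pre-B cells of each library and 84 (2.75%) lower. Il2ra stood at 212 CPM in running and 179 CPM in ground small pre-B cells, and at 16.3 and 55.3 CPM in the pro-B gate. Brwd1, which encodes a chromatin reader that opens the kappa locus for recombination, had 157 and 159 CPM against 10.9 and 15.1 CPM. Polm, which encodes a polymerase of end joining used at light-chain junctions, had 177 and 164 CPM against 21.8 and 10.1 CPM. Ikzf3 was also higher, at 255 and 265 CPM against 24.5 and 35.2 CPM, as was the pseudokinase gene Trib2, at 161 and 159 CPM against 10.9 and 10.1 CPM. Lower in small pre-B cells were the cyclin gene Ccnd2, at 10.5 and 7.15 CPM against 256 and 50.3 CPM, and the transcription factor genes Erg, at 8.74 and 11.4 CPM against 215 and 176 CPM, and Lef1, at 41.9 and 54.4 CPM against 799.5 and 402 CPM. Vpreb1 and Igll1, also at the bottom, were used by the gates.

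Against mature B cells, gated on Ighd, 334 of 6396 genes (5.22%) were higher by 2-fold in each library and 326 (5.1%) lower. The mature gate set no limit on Rag or pro-B genes, so it is not a clean mature stage. Before the UMI limit, 74 of its 650 running and 67 of its 665 ground cells held a Rag UMI with at most 1 UMI of the pro-B genes. Under the limit its Rag1 level was 91.3 CPM in running and 96.4 CPM in ground. The low-affinity IgE receptor gene Fcer2a stood at 6.99 CPM in running and 1.43 CPM in ground small pre-B cells, and at 292 and 277 CPM in mature cells. The complement receptor gene Cr2 had 1.75 and 1.43 CPM against 123 and 132 CPM, and the class II gene H2-Eb1 61.2 and 24.3 CPM against 1750 and 1650 CPM. Rag1 was used by the gate. Beside Il2ra, the extracellular matrix gene Reln was higher, at 71.7 and 85.8 CPM against 17.6 and 5.80 CPM. Against immature cells, gated on Ighm without Rag or Ighd, 133 of 4601 genes (2.89%) were higher and 185 (4.02%) lower. Xrcc6, which encodes the Ku70 subunit of end joining, was among the higher genes at 386 and 343 CPM against 72.2 and 91.9 CPM. The immature gate also held monocyte transcripts such as Tgfbi (120 and 78.2 CPM, against 3.50 and 8.58 CPM in small pre-B cells), so it is not a clean B-cell stage. Bach2 and Cecr2 were at their highest in the small pre-B gate, with Bach2 at 1007 and 1008 CPM against 320 to 374 CPM in running and 357 to 467 CPM in ground over the other 3 gates.

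**Figure D2:**
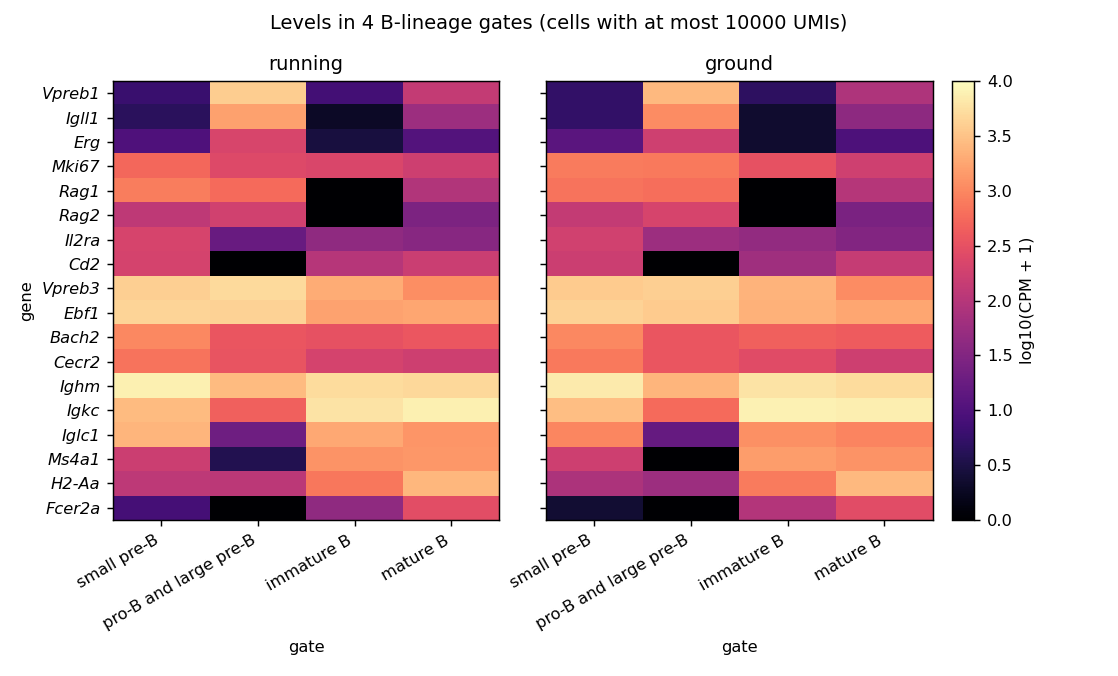
Levels of 18 genes in 4 B-lineage gates as log10(CPM + 1) of summed UMIs in cells with at most 10000 UMIs, for running (left) and ground (right). In each library Il2ra, Bach2 and Cecr2 are brightest in the small pre-B column, Erg in the pro-B column and Fcer2a in the mature column, while Rag1 and Rag2 in the immature column are at 0 by the gate.

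Light-chain constant genes split the members and also differed between the libraries. Iglc1, a lambda constant gene (chromosome 16, 19061752 to 19062071), had 1399 UMIs in 182 running cells and 681 in 210 ground cells under the limit, at levels of 2445 and 974 CPM (log2 ratio 1.33, 1.19 to 1.46). Igkc, the kappa constant gene (chromosome 6, 70726435 to 70726754), had 1516 and 2038 UMIs, at levels of 2650 and 2915 CPM (log2 ratio −0.14, −0.23 to −0.04). Over all members the Igkc ratio was 1.45, because a running cell of 18630 UMIs held 4208 of the 5928 running UMIs. That cell also held 2223 of the 2248 running UMIs of the IgA gene Igha and 1018 of the 1028 of Jchain, both plasma cell genes. The other lambda genes had log2 ratios of 0.60 for Iglc2 (0.42 to 0.77) and 0.21 for Iglc3 (0.03 to 0.39). Iglc2 and Iglc3 are close copies of each other, so their separate counts are uncertain. A running cell held 68 Iglc1 UMIs with 0 of Iglc2 and 0 of Iglc3, and sharing of reads between Iglc1 and these genes was not tested. Ighm, the heavy-chain constant gene, stood at 7586 CPM in running and 6912 CPM in ground.

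The difference in Iglc1 lay in how many cells carried it in quantity and in how much each held. Among non-cycling cells under the limit, at least 10 Iglc1 UMIs were found in 35 of 163 running cells (21.5%, 15.4 to 28.6%) and 25 of 180 ground cells (13.9%, 9.19 to 19.8%), and the intervals overlap. The median in those cells was 25 UMIs in running and 15 in ground, and the highest cell held 102 and 61. At least 10 Igkc UMIs were found in 28.2% of running (21.5 to 35.8%) and 37.2% of ground cells (30.1 to 44.7%). Of the running cells, 46 reached 10 UMIs for Igkc, 49 for any Iglc gene and 6 for both, and of the ground cells 67, 39 and 12. Cells with at least 10 Iglc1 UMIs held a median of 1 Igkc UMI in running and 5 in ground. No constant gene of the 4 reached 10 UMIs in 74 running (45.4%) and 86 ground cells (47.8%). Rag transcripts stood at 1220 CPM in the Iglc1 cells and 767 CPM in the Igkc cells of running, and at 1089 and 785 CPM in ground. Counted per cell, the median was 2 Rag UMIs in each of these groups. The Igkc cells were deeper, with medians of 2889.5 UMIs in running and 3105 in ground, against 2358 and 2512 in the Iglc1 cells. The gate used the Rag genes, and the part of depth in the CPM values was not tested.

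Cycling members had kappa but almost no lambda transcripts. In 19 running and 30 ground cycling cells, every cell held Igkc, 205 and 327 UMIs in all, whereas Iglc1 had 0 and 2 UMIs, Iglc2 0 and 0, and Iglc3 1 and 2, although these cells were the deeper ones. The counts read the constant gene at its 3′ end, and do not separate transcripts of a rearranged locus from those of an unrearranged one. T cells served as a background for Igkc and held a mean of 0.550 Igkc UMIs in running and 1.06 in ground, with at most 4 and 6 in a cell. This background was higher in ground, at 97.7 CPM in running and 216 CPM in ground. Its source, and its part in the Igkc values of the members, were not tested. For Iglc1, T cells held 6 UMIs in 258 running cells and 5 in 191 ground cells. Variable segments were seldom captured, with 36 lambda variable UMIs in 30 running members and 13 in 12 ground members, mostly of Iglv1 (27 and 8 UMIs). Kappa variable segments had 66 UMIs in running and 69 in ground. The same direction for Iglc1 was seen in the immature gate, at a log2 ratio of 0.68 (0.57 to 0.80), and in the mature gate, at 0.49 (0.41 to 0.57).

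**Figure D3:**
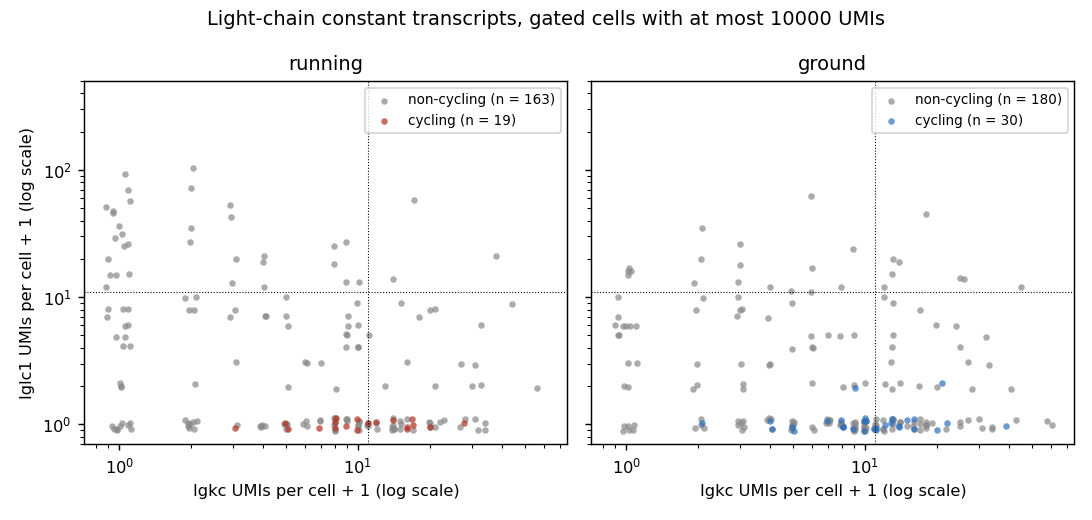
Igkc UMIs against Iglc1 UMIs per cell, each plus 1 on log scales with small random offsets, in members with at most 10000 UMIs, for running (left) and ground (right). Dotted lines mark 10 UMIs. Cycling cells (19 and 30, coloured) lie along the bottom with Igkc and at most 1 Iglc1 UMI, and more non-cycling running cells (35) than ground cells (25) reach 10 Iglc1 UMIs.

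Over all genes, few differed by 2-fold between the libraries, and fewer still once the largest cells were set aside. Of 4998 genes with at least 50 UMIs over all members, 63 (1.26%) were at least 2-fold higher in running and 37 (0.74%) at least 2-fold lower, around a median log2 ratio of −0.02. A single cell held over 25% of the UMIs of 36 of the 63 higher genes and of 7 of the 37 lower ones. Under the limit of 10000 UMIs, 10 of 3963 genes (0.252%) were higher and 28 (0.707%) lower, of which 4 and 6 were shared with the first lists. Among non-cycling cells under the limit the counts were 8 (0.262%) and 17 (0.557%) of 3053 genes. The immediate early transcription factor genes Fos and Egr1 were among the 10 highest named by the rule over all members, with 123 and 57.0 CPM in running against 23.7 and 20.2 CPM in ground. Under the limit Fos had 14 UMIs in running and 9 in ground and Egr1 had 16 and 11, with intervals that included 0. The haemoglobin genes were the lowest over all members, with a ground cell holding 2779 of the 2870 ground UMIs of Hba-a1.

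**Figure D4:**
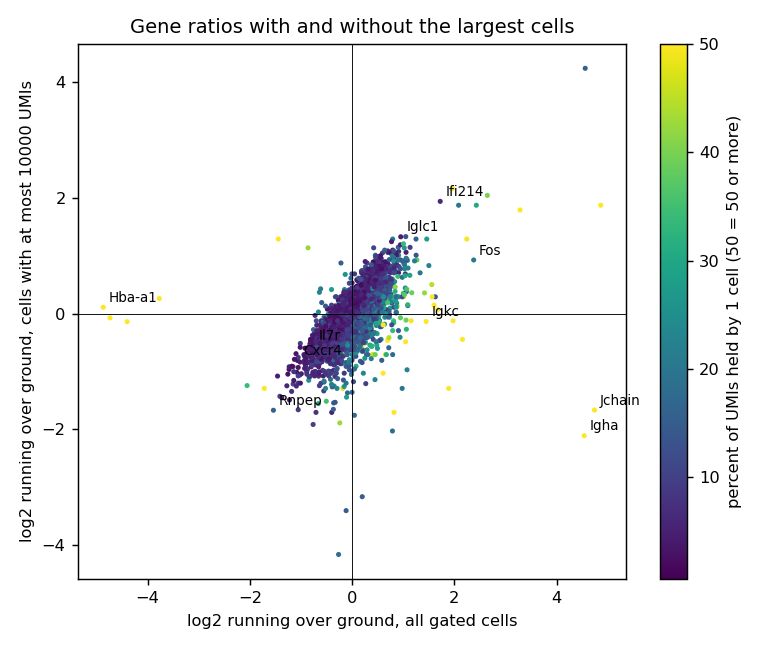
Log2 ratio of CPM, running over ground, over all members (x axis) and over members with at most 10000 UMIs (y axis), with 1 point per gene and colour for the percent of UMIs held by 1 cell. Igha, Jchain and Igkc change sign and Hba-a1 lies near 0 on the y axis, while Iglc1, Ifi214, Rnpep, Cxcr4 and Il7r keep their side.

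The genes with similar ratios in both sets were few and of modest depth. Ifi214, an interferon-inducible member of the PYHIN family, had 48 UMIs in running and 14 in ground, a log2 ratio of 1.72 (0.84 to 2.70), and 1.94 under the limit. Irf9, the DNA-binding subunit of the interferon-activated factor ISGF3, had 57 and 25 UMIs, at 1.13 (0.43 to 1.87), and 1.14 under the limit. Among genes lower in running, the aminopeptidase gene Rnpep had 20 and 56 UMIs, at −1.54 (−2.36 to −0.78), and −1.67 under the limit. Exosc10, a nuclease of the RNA exosome, had 16 and 41 UMIs, at −1.41, and −1.43 under the limit. The corepressor gene Sin3a stood at −1.16 and −0.92, and the poly(A) polymerase gene Tent2 at −1.23 and −0.92. The other genes named by the same rule were Ccl3, Rhob, Ms4a4c, Miip, Tpm1 and Pcyt1a, with ratios of 1.22 to 2.08, and Zfp113, Phospho2, Arhgap18, Pcyox1, Ddx49 and Tsc22d3, with ratios of −1.46 to −1.18. Of these, Rhob stood at 0.29 and Pcyt1a at 0.91 under the limit, each with an interval that included 0. Ccl3 was left with 9 UMIs in running and 3 in ground there, and Ms4a4c with 4 and 3.

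Type I interferon response genes were higher in running in the members and in the other B-lineage gates. Under the limit, 10 of 11 measured genes had ratios above 0, 1 of them by 2-fold, and 4 had an interval above 0. Their median was 0.36, beside −0.02 over all genes, of which 47.8% had ratios above 0. Their summed level was 2881 CPM in running and 1881 CPM in ground, a log2 ratio of 0.61 (0.51 to 0.72). Ifi27l2a, an interferon-induced gene, made up much of it, at 1220 and 701 CPM (0.80, 0.63 to 0.97). Slfn2, a regulator of lymphocyte quiescence, had 360 and 200 CPM (0.85, 0.53 to 1.17). The summed ratio was 0.37 in the pro-B gate, 1.07 in the immature gate and 0.48 in the mature gate. In the immature gate, markers of monocytes and macrophages (1.19), of T and NK cells (2.20) and of dendritic cells (0.60) were also higher in running, and their part in the 1.07 was not tested. Genes of MHC class I presentation were also higher, in 15 of 17 cases, none by 2-fold and 7 with an interval above 0, with a summed ratio of 0.26 (0.19 to 0.32) against 0.24, 0.25 and 0.31 in the pro-B, immature and mature gates. B2m, the shared light subunit of class I molecules, stood at 1461 and 1234 CPM, and H2-Q7 at 358 and 249 CPM. H2-Q7 and H2-Q6 are near-identical copies whose separate counts are uncertain.

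Genes on the list of B-cell maturation surface genes were slightly higher in running members under the limit, in 16 of 18 cases. Of the 18, 1 was 2-fold higher and 7 had an interval above 0. Over all genes, 47.8% were above 0 and 0.252% were 2-fold higher. The summed log2 ratio of the list was 0.22 (0.18 to 0.27), and 0.16 (0.11 to 0.21) in non-cycling cells. Ighm, which every member held, supplied 4340 of the 8179 running and 4833 of the 8555 ground UMIs of the list under the limit. Among the higher genes were the class II genes H2-Eb1, at 61.2 and 24.3 CPM (1.33, 0.46 to 2.26), and Cd74, at 468 and 328 CPM (0.52, 0.26 to 0.78). The lymphotoxin gene Ltb, at 114 and 62.9 CPM (0.85, 0.28 to 1.44), was also higher, while Ms4a1, which encodes CD20, stood at 163 and 167 CPM. Over all members the summed ratio was −0.03, with 11 of 18 genes above 0. It was 0.20 (0.09 to 0.30) in the pro-B and large pre-B gate, −0.12 in the immature gate and −0.02 in the mature gate.

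Genes of S phase and mitosis had lower summed counts in running members. Under the limit 29 of 32 measured genes were below 0, 3 of them by 2-fold and 17 with an interval below 0. Over all genes, 47.8% were above 0 and 0.707% were 2-fold lower. The summed ratio of the list was −0.37 (−0.42 to −0.31). Mki67 stood at 526 CPM in running and 804 CPM in ground, and the replicative helicase gene Mcm4 at 19.2 and 55.8 CPM. Over all members the summed ratio was −0.06, with 23 of 38 genes below 0 and none 2-fold. The share of cycling cells under the limit, given above as 10.4% in running and 14.3% in ground, moves with this value, and its part in it was not tested. In non-cycling cells under the limit the summed ratio was −0.29 (−0.46 to −0.12), with 4 of 5 measured genes below 0. The cycling line itself uses 38 genes of this list. In the pro-B gate the same list stood at −1.22, in the immature gate at −0.09 and in the mature gate at −0.16.

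Cxcr4 and Il7r were among the cytokine receptor and homing genes that were lower in running. Cxcr4 stood at 161 CPM in running and 338 CPM in ground over all members (−1.07) and at 217 and 380.5 CPM under the limit (−0.81, −1.13 to −0.50). A Cxcr4 UMI was found in 46.2% of running and 66.8% of ground members with at least 1000 UMIs, and in 15.4% (10.6 to 21.2%) and 33.2% (26.9 to 39.9%) after thinning to 1000 UMIs, against 4.59% and 9.18% of thinned T cells. The immature and mature gates had ratios of −0.80 and −0.83, and the pro-B gate −0.33 (−0.97 to 0.32). Il7r, which encodes the interleukin 7 receptor, stood at 544 and 799.5 CPM under the limit (−0.56, −0.76 to −0.35) and at −0.52 in the pro-B gate, but −0.05 (−0.28 to 0.18) in the mature gate. Over the whole list of cytokine receptors and homing genes 6 of 14 were above 0 and 8 below under the limit, none by 2-fold, with a summed ratio of −0.18 (−0.26 to −0.09), and of −0.25 over all members. Cxcr4 and Il7r are part of that sum. Of all genes under the limit, 47.8% were above 0, 0.252% were 2-fold higher and 0.707% 2-fold lower.

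Tsc22d3, a standard glucocorticoid receptor target also called GILZ, had 44 UMIs in running and 96 in ground over all members, a log2 ratio of −1.18 (−1.73 to −0.65), and −0.91 under the limit. It stood at −0.73 in the pro-B gate (−1.54 to 0.09), −0.75 in the immature gate and −0.84 in the mature gate. The glucocorticoid list, which also holds Il7r, had 2 of 8 measured genes above 0 and 6 below, none by 2-fold, and a summed ratio of −0.34 (−0.47 to −0.22). Another target, Per1, had 8 UMIs in running and 4 in ground, and Fkbp5 had 2 and 8, too few to give a direction. Btg1, from the list of cell cycle exit and cyclins, stood at 1176 and 1610 CPM (−0.45, −0.59 to −0.31), whereas its relative Btg2 stood at 911 and 891 CPM. The summed ratio of that list was −0.28, with 7 of 9 genes below 0 and none past 2-fold. Beside both lists, 47.8% of all genes under the limit were above 0, 0.252% were 2-fold higher and 0.707% 2-fold lower.

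Genes of the core programme of the stage had summed ratios that depended on the largest cells. Lineage transcription factor genes had a summed log2 ratio of −0.02 (−0.06 to 0.02) under the limit, with 11 of 30 above 0 and none past 2-fold, and of −0.23 (−0.26 to −0.19) over all members, with 5 of 32 above 0. In non-cycling cells under the limit it was −0.09 (−0.14 to −0.05). For this and the lists below, 47.8% of all genes were above 0 under the limit and 47.1% over all members. Under the limit 0.252% of all genes were 2-fold higher and 0.707% 2-fold lower. Ebf1 stood at 4464 CPM in running and 4242 CPM in ground, Foxo1 at 285 and 277 CPM, and Pax5, which encodes the guardian of B-cell identity, at 489 and 608 CPM (−0.31, −0.54 to −0.09). Pre-B receptor and signalling genes stood at 0.10 under the limit, with 12 of 20 above 0, and at −0.13 over all members. The kinase gene Syk stood at 996 and 1026 CPM and the adaptor gene Blnk at 419 and 355 CPM under the limit. Recombination and end-joining genes stood at −0.08 under the limit, with 5 of 10 above 0. Both lists hold genes that the gate used, Cd79a, Vpreb1 and Igll1 among the receptor genes and Rag1, Rag2 and Dntt among the recombination genes, so their sums are not independent of it. Rag1 under the limit stood at 808 and 689 CPM (0.23, 0.04 to 0.42) and at −0.09 over all members, so its direction depends on the largest cells. Chromatin regulators stood at −0.16 (18 of 25 below 0), including Ezh2 at 330 and 462 CPM and Cecr2 at 676 and 774 CPM. The BCL2 family and p53 targets stood at −0.20, immediate early genes at 0.02, heat shock genes at −0.08, glycolysis at −0.04, respiratory chain genes at −0.01 and cholesterol genes at 0.09. Heat shock genes had stood at 0.24 over all members, with 12 of 15 above 0.

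**Figure D5:**
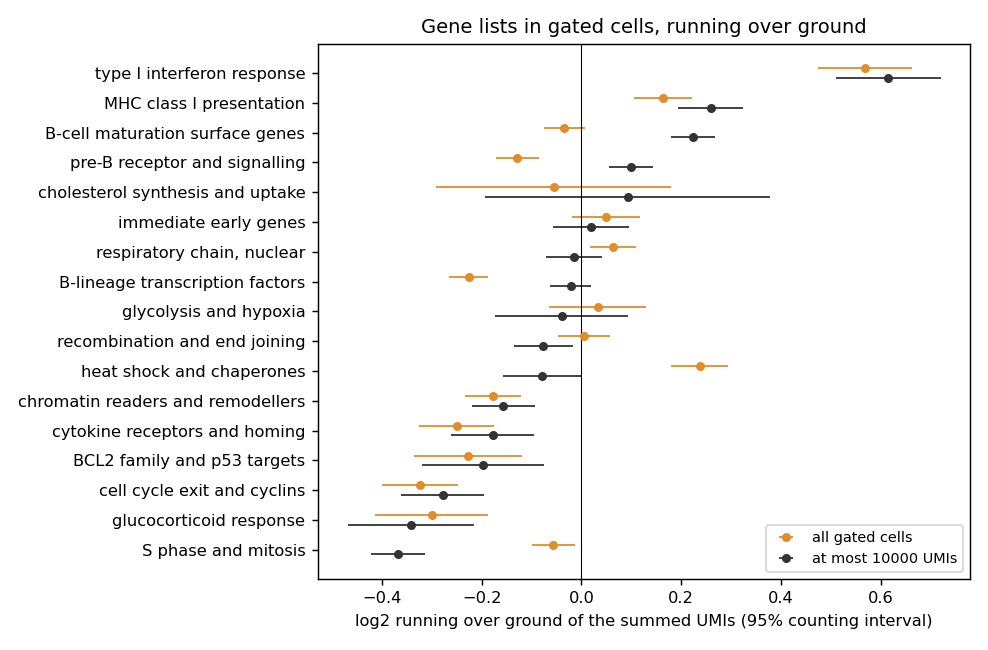
Log2 ratio, running over ground, of the summed UMIs of 17 gene lists with 95% counting intervals, over all members (orange) and members with at most 10000 UMIs (black). Interferon genes lie at 0.57 and 0.61, and S phase and mitosis genes at −0.06 and −0.37. The heat shock, maturation, pre-B receptor, recombination, glycolysis, respiratory chain and cholesterol lists change sign between the sets.

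Transcripts of other cell types were present at low levels and moved with the largest cells. Neutrophil markers summed to 7307 CPM in running and 8116 CPM in ground over all members, and to 5259 and 6418 CPM under the limit (−0.29, 12 of 12 measured genes below 0). Of all genes under the limit, 47.8% were above 0. Erythroid markers had a ratio of −2.95 over all members and 0.11 under the limit, and plasma cell markers 1.24 and −0.01. Monocyte and macrophage markers summed to 218 and 219 CPM under the limit, T and NK markers to 35.0 and 68.7 CPM, dendritic markers to 425 and 409 CPM, basophil and mast cell markers to 19.2 and 11.4 CPM, and stem and stromal markers to 149 and 129 CPM. The part of these transcripts in the gene ratios above was not tested. Rcn2, a gene for a calcium-binding protein of the secretory pathway, had 14 UMIs in running and 5 in ground members (1.43, −0.13 to 3.26), and 7 and 5 under the limit. Nrp2 and Itgb1, which encode neuropilin-2 and integrin β1, had 0 and 2 UMIs and 62 and 36 UMIs, and Itgb1 had 18 and 23 under the limit. Under the limit no difference in these 3 genes was detectable in the small pre-B cells at this depth, whereas Rcn2 had 27 and 4 UMIs in the immature gate (2.39, 0.87 to 4.36) and 49 and 15 in the mature gate (1.68, 0.83 to 2.62).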

How the data were processed

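Per the file headers, Cell Ranger 5.0.0 produced the deposited matrices, which hold unnormalized UMI counts. The submitters' processing notes also name STAR and the build mm10. Barcodes with at least 500 UMIs, 250 genes and at most 10% mitochondrial UMIs were kept, 9180 of 9473 in running and 8909 of 9162 in ground, with 79990530 and 85014860 UMIs in the whole libraries. UMIs of the gated cells, 876711 in running and 843357 in ground, were summed per library and scaled to CPM. Ratios carry exact conditional binomial intervals, sums exact Poisson intervals and shares Clopper-Pearson intervals, at 95%. A gene counted as higher or lower at a 2-fold difference among genes with at least 50 UMIs over both libraries.

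Genes named between the libraries are the 10 highest and 10 lowest with an interval excluding 0 and at most 25% of UMIs in 1 cell. Mitochondrial, ribosomal, haemoglobin, immunoglobulin, unnamed, Y-linked and other-cell marker genes and Xist were left out. Between stages, the text draws on the 10 highest and lowest with at least 100 UMIs. Members, markers and lists were chosen with earlier results of these data known. The rule for the members uses measured values. The 10000 UMI limit, the cycling line and the sets without large cells were added after seeing the data. Doublets were called with Scrublet in scanpy 1.11.5 (1.09% of running and 2.73% of ground barcodes) and kept in the main values. Coordinates come from RefSeq GRCm38.p6, the assembly of mm10. On simulated counts for running over ground in 4998 genes, 200 of them changed 4-fold, intervals covered 96% of ratios, 99% of changed genes were recovered and 0.271% of unchanged genes passed 2-fold. Those counts were drawn with the counting error that the intervals assume and without differences between cells. The simulation therefore checks the calculation only, and not how the intervals perform where single cells hold many UMIs of a gene. Software was Python 3.11.15 with matplotlib 3.10.9, scipy 1.17.1, numpy 2.4.6 and pandas 2.3.3.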

Additional observations from a re-analysis of the deposited data

Results flagged for a closer look

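Bcl11a, which encodes a transcription factor needed for early B-cell development, moved in opposite directions in 2 stages. In small pre-B cells with at most 10000 UMIs it stood at 135 CPM in running and 87.2 CPM in ground (log2 ratio 0.63, 0.12 to 1.13). In the pro-B and large pre-B gate it stood at 231 and 377 CPM (log2 ratio −0.71, −1.17 to −0.24). It was singled out because both counting intervals exclude 0 and both ratios exceed 0.5 in size, among the list genes and named genes with at least 50 UMIs in each gate. The difference between the gates was not tested.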

How the results depend on the processing

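The ratio of the members' shares, 0.880, stayed below 1 under all 8 alternatives, from 0.766 to 0.929. The 63 genes at least 2-fold higher in running became 30 without cycling members, 10 with at most 10000 UMIs per cell, 8 with non-cycling cells under that limit, and 228, 17 and 5 with a minimum of 20, 100 and 200 UMIs per gene. The 37 genes at least 2-fold lower became 21 without cycling members, 17 with non-cycling cells under the limit, 142, 8 and 5 with a minimum of 20, 100 and 200 UMIs per gene, and 64 as a mean of CPM over cells. Fewer or more genes are tested under the other minimums, and for the remaining settings the cause was not tested. Igkc, at 1.45 over all members, turned to −0.34 with at least 2 Rag UMIs, −0.14 under the limit and −0.25 in non-cycling cells under the limit, each of which leaves out the cell that held 4208 of its UMIs in running. Of the other values of genes and shares under alternatives, 33 moved beyond their counting interval and 284 did not, and of the summed list values 57 moved and 113 did not. Median-of-ratios scaling gave 64 genes higher and 34 lower. Depth limits single genes, as in the ratio of Fos under the limit, 0.93 (−0.38 to 2.32) from 14 and 9 UMIs. No paired analysis was possible because each group has 1 library, and no library can be left out.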
